A study of Mus musculus with 8 samples.

Results

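The Prame-like family is represented here by 9 genes of mouse embryonic stem cells (ESCs): Pramel4, Pramel5, Pramel6, Pramel7, Pramef6, Pramef8, Pramef12, Pramef17 and Pramef25. They were chosen by name, with earlier results of these data known, and all 9 were found among the 55573 genes of the table. The annotation gives 57 genes of the wider PRAME family in all, so 48 others remained for comparison. RefSeq now calls Pramef6 Pramel11, Pramef8 Pramel12, Pramef12 Pramel13, Pramef17 Pramel14 and Pramef25 Pramel16.

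Bulk RNA-seq of polyadenylated RNA was done on 4 groups of ESCs with 2 libraries each. The 2C::GFP+/SA group was of genotype 2C::GFP+ and received 2 µM SGC0946, an inhibitor of the histone methyltransferase DOT1L, and 2 µM AS8351, reported to inhibit KDM5B, a histone demethylase, in KnockOut medium with 10 ng/ml IL6/sIL-6R and no LIF. The 2C::GFP+/SGC group was of genotype 2C::GFP+ and received 2 µM SGC0946 in KnockOut medium with 10 ng/ml LIF. The 2C::GFP+ group was of the same genotype and untreated; its name refers to a GFP reporter for cells in a 2-cell-like state. Whether reporter-positive cells were sorted is not stated, and a rise of 2-cell-like genes over mESC cannot be told apart from such a selection. The mESC group was wild type (WT) and untreated. For the untreated groups the labels name N2B27 medium with LIF and inhibitors of MEK and GSK3, or KnockOut serum replacement medium with LIF, without saying which group grew in which, so medium and group cannot be told apart in comparisons with mESC or with 2C::GFP+. Likewise the added AS8351 and the exchanged cytokine cannot be told apart in 2C::GFP+/SA against 2C::GFP+/SGC. The columns used for 2C::GFP+ are named KOSR, after KnockOut serum replacement, which no label ties to a given group. They were given to 2C::GFP+ by elimination, which all values for that group depend on. The labels do not say that the 2 libraries of a group came from separate cultures, so p-values measure only the spread between these libraries, which may be technical.

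PRAME-family proteins fold into leucine-rich repeats, and several serve as the substrate-binding part of ubiquitin ligases built on cullin 2 with elongins B and C. In mice the family has expanded into many copies, with expression mostly in germ cells, oocytes and early embryos. PRAMEL7, the best studied in ESCs, is found in the inner cell mass, has been described as a target of LIF-STAT3 signalling, and brings UHRF1, the cofactor of the maintenance DNA methyltransferase DNMT1, to degradation. Many family copies are switched on in the 2-cell embryo and in 2-cell-like cells.

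The libraries held 12299931 to 145810034 counts, replicate 1 being deeper than replicate 2 by a factor of 7.46 to 9.62 within groups, so the low values of replicate 2 carry the larger counting error. The 2 libraries of 2C::GFP+/SA differed more than those of any other group (chi-square of 44.1 per degree of freedom, against 17.2 to 20.3). The 5 general ESC markers (Pou5f1, Nanog, Sox2, Zfp42, Esrrb) were present in every library, with summed levels of 2884 and 3155 TPM in 2C::GFP+/SA, 3778 to 4006 TPM in 2C::GFP+/SGC, 4116 to 4666 TPM in 2C::GFP+ and 4183 to 4546 TPM in mESC; TPM are transcript abundances corrected for gene length, comparable between genes. The 6 markers of the 2-cell-like state summed to 3165 to 7518 TPM in 2C::GFP+/SA, 1710 to 1765 TPM in 2C::GFP+/SGC, 623 to 860 TPM in 2C::GFP+ and 3.49 to 10.2 TPM in mESC. The higher of the 2C::GFP+/SA values is that of replicate 1. In 2C::GFP+/SA against 2C::GFP+ 4 of the 5 ESC markers fell and 5 of the 6 2-cell-like markers rose. Of all genes tested, 13.8% fell and 14.9% rose in that comparison. In a bulk sample, fewer cells of a type and less RNA per cell cannot be told apart.

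Markers of other cell types also moved with the groups. The 6 primitive endoderm markers summed to 32.9 to 76.2 TPM in 2C::GFP+/SA (higher in replicate 2), 6.63 to 13.1 TPM in 2C::GFP+/SGC, 3.61 to 8.70 TPM in 2C::GFP+ and 3.30 to 4.71 TPM in mESC, and 5 of 6 rose in 2C::GFP+/SA against 2C::GFP+ and all 6 against mESC. Of 6 fibroblast markers 3 were tested, and all 3 rose in 2C::GFP+/SA against 2C::GFP+; the 6 summed to 25.6 to 26.0 TPM in 2C::GFP+/SA, 14 to 14.3 TPM in 2C::GFP+/SGC, 8.91 TPM in each 2C::GFP+ library and 3.72 to 5.2 TPM in mESC, most of it Thy1, while Col3a1, Postn and Lum were at or near 0 in all libraries. The 5 germ cell and oocyte markers summed to 159 to 163 TPM in 2C::GFP+/SA, 140 to 196 TPM in 2C::GFP+/SGC, 90.7 to 104 TPM in 2C::GFP+ and 35.6 to 44.9 TPM in mESC; 2 of 4 tested rose and 1 fell in 2C::GFP+/SA against 2C::GFP+, and the oocyte gene Nlrp5 was at or near 0 in all libraries. The 5 trophoblast markers summed to 5.24 to 8.70 TPM in 2C::GFP+/SA, 6.75 to 7.29 TPM in 2C::GFP+/SGC, 6.11 to 7.48 TPM in 2C::GFP+ and 18.5 to 27.8 TPM in mESC; none of 4 tested passed in 2C::GFP+/SA against 2C::GFP+, and Elf5 was at or near 0. Of all genes tested, 14.9% rose and 13.8% fell in 2C::GFP+/SA against 2C::GFP+, and 25% rose and 20.1% fell against mESC. The part of these cell types in the results on the family was not tested.

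Summed, the 9 members gave 1003 and 563 TPM in 2C::GFP+/SA (replicates 1 and 2), 333 and 287 TPM in 2C::GFP+/SGC, 221 and 212 TPM in 2C::GFP+, and 103 and 136 TPM in mESC. No group overlapped another, and the 2 libraries of 2C::GFP+/SA lay further apart than those of any other group. The gene with the largest share of the sum changed between groups. In mESC it was Pramef12, with 88.9% and 89.3% of the members' TPM. Pramef12 still came first in 2C::GFP+, with 41.9% and 29.5%. In 2C::GFP+/SGC Pramef25 came first, with 36.2% and 28.5%, and Pramef12 held 25.6% and 19.9%. Pramef25 also came first in 2C::GFP+/SA, with 59.3% and 46.9%, where Pramef12 held 5.38% and 11.1%.

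**Figure D1:**
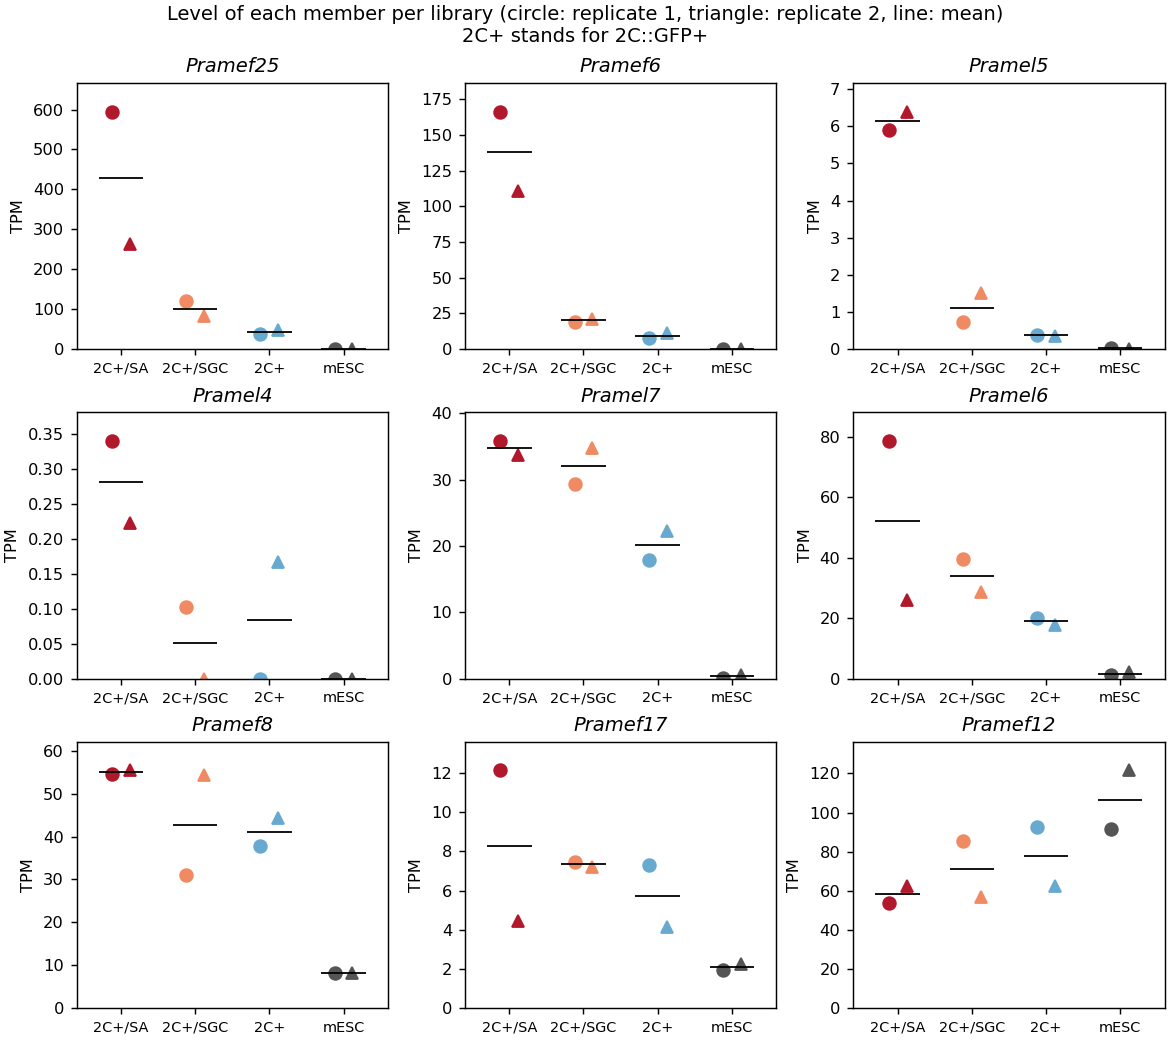
Level of each of the 9 genes (TPM, linear axis from 0, a different scale per panel) in the 4 groups. Circles are replicate 1, triangles replicate 2, and the line is the mean of the 2. Pramef25, Pramef6 and Pramel5 are highest in both 2C::GFP+/SA libraries, Pramel7 and Pramef8 are near 0 or low in mESC only, and Pramef12 is highest in one mESC library (122 TPM) and lowest in one 2C::GFP+/SA library (53.9 TPM).

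**Figure D2:**
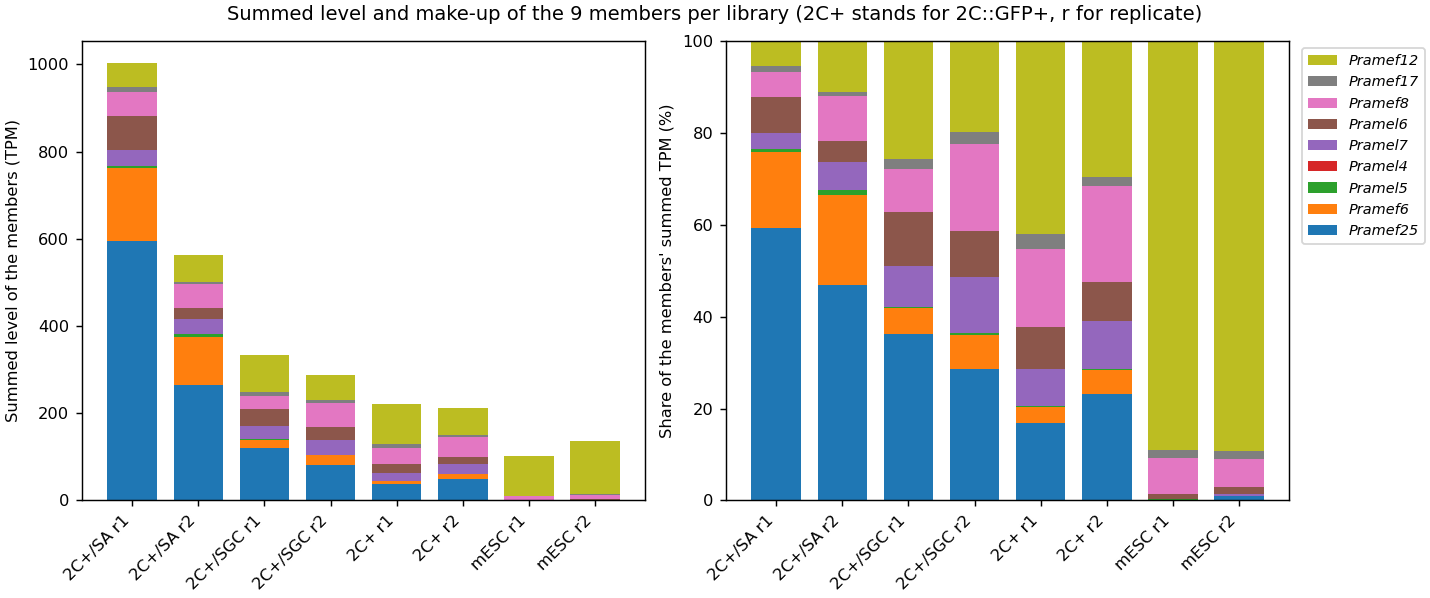
Summed TPM of the 9 genes (left) and the share of each gene in that sum (right, %) in the 8 libraries, stacked by gene. Pramef12 fills most of both mESC bars (88.9% and 89.3%). Pramef25 takes 59.3% and 46.9% of the 2C::GFP+/SA bars and 36.2% and 28.5% of the 2C::GFP+/SGC bars.

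Pramef25 (ENSMUSG00000078511, chromosome 4, 143948580 to 143951016, minus strand, GRCm38 as for all positions here) reached the highest level of any member in 2C::GFP+/SA. It had 595 and 264 TPM in 2C::GFP+/SA, 120 and 81.9 TPM in 2C::GFP+/SGC, 37.6 and 49.0 TPM in 2C::GFP+, and 0.124 and 1.37 TPM in mESC. No groups overlapped, although replicate 1 of 2C::GFP+/SA was 2.25 times replicate 2. By edgeR's quasi-likelihood test, with p adjusted by Benjamini-Hochberg over 20608 genes as for every adjusted p given here, the log2 fold change was 10.52 ± 1.19 (SE, adjusted p = 0.00224) against mESC and 3.46 ± 0.76 (adjusted p = 0.0316) against 2C::GFP+. Against 2C::GFP+/SGC the value was 2.31 ± 0.72 (adjusted p = 0.111), which did not pass, though 3 of 18 other settings gave a call (adjusted p down to 0.0203). The call against 2C::GFP+ ended under 9 of 17 other settings, with an adjusted p of up to 0.168, among them the omission of 2C::GFP+/SA replicate 1 (log2 fold change 2.51, adjusted p = 0.0544) or of any 1 library of 2C::GFP+ or 2C::GFP+/SGC.

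Pramef6 (ENSMUSG00000078512, chromosome 4, 143894237 to 143900380, minus strand) showed the same order of groups with closer replicates. Its levels were 166 and 111 TPM in 2C::GFP+/SA, 19 and 21.5 TPM in 2C::GFP+/SGC, 7.66 and 11.3 TPM in 2C::GFP+, and 0.0888 and 0 TPM in mESC (8 counts and none). No groups overlapped. It rose in 2C::GFP+/SA against mESC (log2 fold change 10.81 ± 0.51 SE, edgeR adjusted p = 1.41e-07), against 2C::GFP+ (4.02 ± 0.32, adjusted p = 2.34e-05) and against 2C::GFP+/SGC (2.99 ± 0.31, adjusted p = 0.000229). Those 3 calls held under all settings tried. The 2C::GFP+/SGC group exceeded 2C::GFP+ by 1.02 ± 0.30 on the log2 scale, which did not pass (edgeR adjusted p = 0.322); DESeq2 gave 1.04 with an adjusted p of 0.0252.

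Pramel5 (ENSMUSG00000036749, chromosome 4, 144270633 to 144280488, minus strand) showed the same order at a far lower level. It had 5.89 and 6.39 TPM in 2C::GFP+/SA (432 and 53 counts), 0.729 and 1.51 TPM in 2C::GFP+/SGC, 0.379 and 0.362 TPM in 2C::GFP+ (33 and 4 counts), and 0.0403 and 0 TPM in mESC (4 counts and none). The groups did not overlap. Its log2 fold change in 2C::GFP+/SA was 7.40 ± 0.77 (edgeR adjusted p = 4.79e-06) against mESC, 4.06 ± 0.60 (adjusted p = 0.000255) against 2C::GFP+ and 2.76 ± 0.56 (adjusted p = 0.00472) against 2C::GFP+/SGC. The last of these did not pass without 2C::GFP+/SGC replicate 1 (2.21, adjusted p = 0.0834). A log2 value against mESC depends on the few counts there.

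Pramel4 (ENSMUSG00000073724, chromosome 4, 144059126 to 144069327, plus strand) was barely detected and too low to be tested. It had 27 and 2 counts in 2C::GFP+/SA, 10 and 0 counts in 2C::GFP+/SGC, 0 and 2 counts in 2C::GFP+, and none in mESC. The level was 0.340 and 0.223 TPM in 2C::GFP+/SA, against 0 and 0.167 TPM in 2C::GFP+. Summed over libraries and scaled to library totals, which weights the deeper replicate 1, 2C::GFP+/SA exceeded 2C::GFP+ by a ratio of 19 (95% counting interval 4.81 to 164). In replicate 2 alone, with 2 counts in each group, the ratio was 1.34 (0.0971 to 18.5), so the pooled ratio rests on replicate 1. Pooled, 2C::GFP+/SA exceeded mESC 14.6-fold when the mESC group was set at 3 counts, the limit that a count of 0 allows. That value takes the 29 counts of 2C::GFP+/SA as exact, so it leaves out their counting error. The intervals above cover counting error only and compare these libraries. Replicate 1 supplied 27 of the 29 counts of 2C::GFP+/SA. Of the 31-base words of Pramel4 transcripts, 88.3% also occur in its neighbour Gm13102, which had no count in any library. How reads that match both were counted is not stated, so the counts of Pramel4 cannot be assigned to a single copy with certainty.

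Sequence sharing of this kind bears on several members, since how reads with several matches were counted is not stated. The share of 31-base words found in any other gene was 91.5% for Pramel4, 80.9% for Pramef17, 79.4% for Pramef25, 49.9% for Pramef6 and 41.6% for Pramel5. It was 8.64% for Pramel7, 1.09% for Pramel6, 0.284% for Pramef8 and 0% for Pramef12. Of the genes that share most with Pramef25, Gm13040 and Gm13057 (48.4% of its words each) had no count in any library. Gm13043 (47.6%), BC080695 (42.7%) and Gm13101 (42.6%) did have counts. What these counts say of shared reads was not tested. The members with the largest changes in 2C::GFP+/SA against 2C::GFP+ therefore lie among those that share sequence, and values of Pramef25, Pramef6, Pramel5 and Pramef17 are uncertain to that extent.

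Pramel7 (ENSMUSG00000025839) and Pramel6 (ENSMUSG00000025838) lie next to each other on chromosome 2, at 87489087 to 87497093 on the minus strand and 87506565 to 87510872 on the plus strand, 9.471 kb apart. Both were low in mESC and higher in every library of genotype 2C::GFP+. Pramel7 had 35.8 and 33.7 TPM in 2C::GFP+/SA, 29.3 and 34.8 TPM in 2C::GFP+/SGC, 17.9 and 22.2 TPM in 2C::GFP+, and 0.130 and 0.583 TPM in mESC. The 2 treated groups overlapped, and both lay above 2C::GFP+. Pramel7 rose in 2C::GFP+ against mESC by a log2 fold change of 6.53 ± 0.44 (edgeR adjusted p = 5.48e-07), and in 2C::GFP+/SA against mESC by 7.41 ± 0.44 (adjusted p = 6.19e-08), calls that held under all settings. Against 2C::GFP+ it rose in 2C::GFP+/SA by only 0.88 ± 0.29 (adjusted p = 0.0383), and that call ended under 7 of 17 other settings, with an adjusted p of up to 0.229. These were the omission of 2C::GFP+/SA replicate 1 or of any 1 library of 2C::GFP+/SGC or 2C::GFP+, and limma on log2(TPM + 0.1) or on unfiltered log2(TPM + 1).

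Pramel6, reported to bind UHRF1 as PRAMEL7 does, had 78.6 and 25.9 TPM in 2C::GFP+/SA, 39.6 and 28.5 TPM in 2C::GFP+/SGC, 20.0 and 17.8 TPM in 2C::GFP+, and 1.02 and 2.13 TPM in mESC. The spread within 2C::GFP+/SA, 3.03-fold, enclosed both 2C::GFP+/SGC libraries. It rose in 2C::GFP+/SA against mESC (log2 fold change 5.42 ± 0.81, edgeR adjusted p = 0.0033) and in 2C::GFP+ against mESC (3.80 ± 0.78, adjusted p = 0.0208). The second of these calls ended under 5 of 17 other settings, among them the omission of any 1 library of 2C::GFP+ or mESC. The values of 1.62 ± 0.65 (adjusted p = 0.127) in 2C::GFP+/SA against 2C::GFP+ and 0.88 ± 0.63 (adjusted p = 0.436) against 2C::GFP+/SGC did not pass; without 2C::GFP+/SA replicate 1 the value against 2C::GFP+/SGC was -0.42.

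Pramef8 (ENSMUSG00000046862, chromosome 4, 143412426 to 143421091, plus strand) and Pramef17 (ENSMUSG00000078509, chromosome 4, 143991119 to 143994369, minus strand) were present in mESC and higher in every library of genotype 2C::GFP+. Pramef8 had 54.6 and 55.4 TPM in 2C::GFP+/SA, 31 and 54.5 TPM in 2C::GFP+/SGC, 37.7 and 44.4 TPM in 2C::GFP+, and 8.07 and 8.22 TPM in mESC. It rose against mESC by log2 fold changes of 2.81 ± 0.23 in 2C::GFP+/SA (edgeR adjusted p = 1.77e-06) and 2.32 ± 0.23 in 2C::GFP+ (adjusted p = 1.9e-05). Among the 3 groups of genotype 2C::GFP+ no difference passed by edgeR with the settings used throughout: it was 0.49 ± 0.22 (adjusted p = 0.109) for 2C::GFP+/SA against 2C::GFP+ and 0.56 ± 0.22 (adjusted p = 0.103) against 2C::GFP+/SGC. Other settings did give calls: 3 of 17 against 2C::GFP+ (adjusted p down to 0.011) and 3 of 18 against 2C::GFP+/SGC (down to 0.00783), among them DESeq2 (0.0452).

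Pramef17 had 12.1 and 4.43 TPM in 2C::GFP+/SA, 7.48 and 7.20 TPM in 2C::GFP+/SGC, 7.30 and 4.16 TPM in 2C::GFP+, and 1.93 and 2.23 TPM in mESC. The 3 groups of genotype 2C::GFP+ overlapped one another, and all lay above mESC. The log2 fold change against mESC was 2.19 ± 0.53 in 2C::GFP+/SA (edgeR adjusted p = 0.00444) and 1.53 ± 0.53 in 2C::GFP+ (adjusted p = 0.0502, just outside the threshold of 0.05). The second value passed under 7 of 17 other settings, with an adjusted p down to 0.00636. The first call ended under 3 of 18 other settings. Among them were the omission of 2C::GFP+/SA replicate 1, which brought the value to 0.96, and of mESC replicate 1, which left it at 2.14.

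The upstream sequences of Pramel7 and Pramef17, which stand on different chromosomes, are shown because no other pair of members from different chromosomes was as alike. Each runs from 250 bases before to 50 bases after the start site in RefSeq (GRCm38.p6), on the minus strand, and is written 5′ to 3′: chr2:87492369-87492668 and chr4:143994320-143994619. Capitals mark the 2 longest runs that both sequences hold, 23 bases each. The RefSeq start of Pramel7 lies 4675 bases from the start of the GENCODE gene.
Pramel7: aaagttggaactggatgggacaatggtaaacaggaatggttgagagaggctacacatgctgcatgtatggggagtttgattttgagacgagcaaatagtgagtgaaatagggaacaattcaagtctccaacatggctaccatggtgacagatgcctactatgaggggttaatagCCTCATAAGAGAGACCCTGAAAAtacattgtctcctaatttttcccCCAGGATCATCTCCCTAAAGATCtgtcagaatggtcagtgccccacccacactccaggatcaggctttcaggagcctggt
Pramef17: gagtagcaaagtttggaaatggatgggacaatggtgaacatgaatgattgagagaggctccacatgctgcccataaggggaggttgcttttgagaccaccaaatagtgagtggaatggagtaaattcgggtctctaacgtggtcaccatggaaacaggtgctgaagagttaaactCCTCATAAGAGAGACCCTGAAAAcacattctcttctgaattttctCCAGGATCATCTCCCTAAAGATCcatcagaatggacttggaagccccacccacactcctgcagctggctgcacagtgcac
The aligned pair held 239 identical bases, or 76.1% of the alignment. Among 28 pairs of the 8 members with a promoter entry, only Pramel4 and Pramel5 were closer, with 267 identical bases (83.4%) and a shared run of 111 bases. The other 26 pairs lay between 47.1% and 57.8%. In the printed pair, the log2 fold change in 2C::GFP+/SA against mESC was 7.41 for Pramel7 and 2.19 for Pramef17.

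Pramef12 (ENSMUSG00000028591, chromosome 4, 144391674 to 144408464, minus strand) was the exception among the members. It is known in mice for its need in spermatogenesis. It had 53.9 and 62.6 TPM in 2C::GFP+/SA, 85.3 and 56.9 TPM in 2C::GFP+/SGC, 92.8 and 62.5 TPM in 2C::GFP+, and 91.4 and 122 TPM in mESC. The 2C::GFP+/SA libraries lay below both mESC libraries, while the groups of genotype 2C::GFP+ overlapped one another. It fell in 2C::GFP+/SA against mESC by a log2 fold change of -0.81 ± 0.26 (edgeR adjusted p = 0.0308). That call ended under 5 of 18 other settings, among them the omission of any 1 of the 4 libraries. In 2C::GFP+/SA against 2C::GFP+ the value was -0.38 ± 0.26 (adjusted p = 0.315). An antisense gene, Pramef12os, overlaps it with 0 to 32 counts a library, against 581 to 10156 for Pramef12; whether counting used strand is not given.

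Promoter sequences of the 2 members with the highest levels in 2C::GFP+/SA and of Pramef12, which fell there against mESC, are shown side by side. They cover the same window in RefSeq (GRCm38.p6), all on the minus strand of chromosome 4: chr4:143950967-143951266 for Pramef25, chr4:143900331-143900630 for Pramef6 and chr4:144408415-144408714 for Pramef12. Capitals mark CpG dinucleotides, the sites of DNA methylation.
Pramef25: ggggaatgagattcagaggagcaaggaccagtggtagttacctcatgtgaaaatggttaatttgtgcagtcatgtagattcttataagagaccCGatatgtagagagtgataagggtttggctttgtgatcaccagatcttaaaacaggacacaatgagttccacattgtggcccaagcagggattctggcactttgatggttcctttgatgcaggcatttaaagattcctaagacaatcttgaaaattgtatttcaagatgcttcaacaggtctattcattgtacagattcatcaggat
Pramef6: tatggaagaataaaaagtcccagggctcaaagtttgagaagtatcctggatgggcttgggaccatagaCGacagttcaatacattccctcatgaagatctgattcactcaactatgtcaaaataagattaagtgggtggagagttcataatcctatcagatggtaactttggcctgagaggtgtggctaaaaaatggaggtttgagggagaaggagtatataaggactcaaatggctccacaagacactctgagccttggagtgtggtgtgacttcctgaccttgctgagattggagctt
Pramef12: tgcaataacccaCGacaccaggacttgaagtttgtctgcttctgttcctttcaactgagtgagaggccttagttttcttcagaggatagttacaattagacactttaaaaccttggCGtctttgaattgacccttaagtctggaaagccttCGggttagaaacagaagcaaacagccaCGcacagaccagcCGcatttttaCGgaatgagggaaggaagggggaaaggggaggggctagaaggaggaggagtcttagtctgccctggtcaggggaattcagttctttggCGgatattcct
Pramef25 and Pramef6 held 1 CpG each, and Pramef12 held 7, the median of all 32851 promoters in the table. Of those promoters 52.1% held at least 7 CpGs and 94.57% at least 1. The other 5 members with an entry held 0 to 3. Methylation was not measured here.

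Short motifs were sought on both strands of the 8 promoters. The letters GGATTA, a core recognised by OBOX homeodomain proteins, occurred in 3 of 8 (Pramel4 88 bases, Pramel5 103 bases and Pramef6 103 bases before the start, the last on the opposite strand), against 7.06% of all promoters. Pramel4 and Pramel5 share much of this sequence, so their matches are not independent. The letters GATTNAATC, the core recognised by DUX, occurred in none of the 8 and in 0.268% of all promoters. The STAT letters TTCNNNGAA (8.30% of all promoters) and the TATA box letters TATAAA (13.6%) occurred in none. Only these exact letters were sought. The Pramef6 promoter shown above holds TATATAAG, which departs from TATAAA in the last letter and was not counted, so a TATA box there is not excluded. These are matches of letters in a 300-base window, not sites.

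Of 9 members 8 passed the filter on low counts, Pramel4 being the exception; a filter of this kind lets a gene through on the group where it is high, so the counts describe the 8 and are no support for a direction. In 2C::GFP+/SA against mESC 7 rose and 1 (Pramef12) fell, where edgeR called 25% of all genes higher and 20.1% lower. The members' median log2 fold change was 6.41, against 0.03 for all genes tested. In 2C::GFP+ against mESC 6 rose and none fell, against 15.2% and 9.12% of all genes, and Pramef12 and Pramef17 did not pass. The log2 fold change was 7.06 ± 1.15 for Pramef25 (edgeR adjusted p = 0.0149), 6.79 ± 0.52 for Pramef6 (adjusted p = 9.87e-06) and 3.34 ± 0.81 for Pramel5 (adjusted p = 0.00835). The call of Pramef25 ended without either 2C::GFP+ library or mESC replicate 1 (adjusted p between 0.0546 and 0.0769), and that of Pramel5 without 2C::GFP+ replicate 1 (0.092) or mESC replicate 1 (0.0679). With limma on log2(TPM + 1), which shrinks changes of low genes, Pramel5 had 0.43 (adjusted p = 0.347). In all, the call of Pramel5 ended under 5 of 17 other settings, not all of them named here. The members' median was 3.57, against 0.04.

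In 2C::GFP+/SA against 2C::GFP+ the 4 members that rose were Pramef6, Pramel5, Pramef25 and Pramel7, where 14.9% of all genes were called higher and 13.8% lower; none fell. The median was 1.25, against 0.01 for all genes. The 2 libraries of 2C::GFP+/SA lay above both of 2C::GFP+ for 6 of the 8, as for 32.4% of all genes. In 2C::GFP+/SA against 2C::GFP+/SGC only Pramef6 and Pramel5 rose and none fell, against 7.92% and 8.18% of all genes, with a median of 0.72 against -0.02. Both 2C::GFP+/SA libraries lay above both of 2C::GFP+/SGC for 4 of the 8, as for 28.7% of all genes.

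In 2C::GFP+/SGC against 2C::GFP+, which differ by SGC0946 and possibly by medium, no member and no gene (0%) was called by edgeR; 2037 genes had an unadjusted p under 0.05 and DESeq2 called 288 genes. Pramef6, Pramel5 and Pramef25 had values of 1.02 ± 0.30, 1.30 ± 0.60 and 1.15 ± 0.71 on the log2 scale, and Pramel7 had 0.57 ± 0.29. Both 2C::GFP+/SGC libraries lay above both 2C::GFP+ libraries for 5 of 8 members, as for 24.3% of all genes. Comparisons that share a group are not independent of each other.

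**Figure D3:**
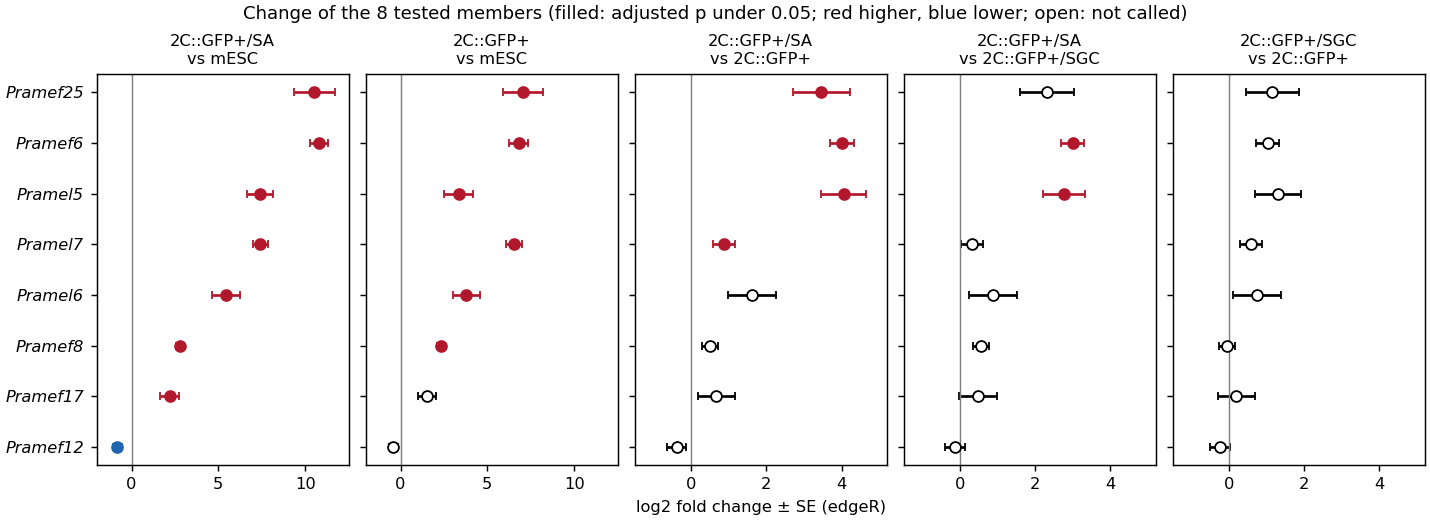
Log2 fold change with its standard error (horizontal axis) of the 8 tested members in each of the 5 comparisons; filled points passed an edgeR adjusted p of 0.05 (red higher, blue lower) and open points did not. Changes against mESC run from -0.81 for Pramef12 to 10.81 for Pramef6, and only Pramef6 and Pramel5 passed against 2C::GFP+/SGC.

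The 57 genes of the wider family together gave 4165 and 2246 TPM in 2C::GFP+/SA, 925 and 840 TPM in 2C::GFP+/SGC, 446 and 491 TPM in 2C::GFP+, and 112 and 149 TPM in mESC. The 9 members made up 24.1% and 25.1% of that sum in 2C::GFP+/SA. Their share was 36.0% and 34.1% in 2C::GFP+/SGC, then 49.7% and 43.2% for the untreated 2C::GFP+ libraries, and 92.0% and 91.6% in mESC. Of the 48 other genes 17 passed the filter, 5 of them without a count in mESC, and 14 had no count in any library; as for the members, the filter admits a gene through the group where it is high, so the counts are no support for a direction. By edgeR all 17 were higher in 2C::GFP+/SA against mESC, where it called 25% of all genes higher. In 2C::GFP+ against mESC 12 were called higher, against 15.2% of all genes. Of the 17, 12 were called higher in 2C::GFP+/SA against 2C::GFP+ (14.9% of all genes) and 6 against 2C::GFP+/SGC (7.92%), and none was called lower in any of these 4 comparisons.

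The 6 of them with the smallest adjusted p in 2C::GFP+/SA against 2C::GFP+ were Gm13083, Gm13078, Oog1, Gm10436, Pramel1 and Gm7942. Gm13083, which holds 40.7% of the 31-base words of Pramef6, had 84.8 and 52.6 TPM in 2C::GFP+/SA, against 4.41 and 5.07 TPM in 2C::GFP+ (log2 fold change 3.98 ± 0.33 SE, edgeR adjusted p = 1.17e-05). Gm13078 had 169 and 123 TPM in 2C::GFP+/SA and 9.77 and 17.2 TPM in 2C::GFP+ (3.59 ± 0.31, adjusted p = 3.44e-05). Oog1, a family copy known from mouse oocytes, stayed low with 2.65 and 2.94 TPM in 2C::GFP+/SA and 0.14 and 0.25 TPM in 2C::GFP+ (4.06 ± 0.74, adjusted p = 0.00152). Pramel1 had the smallest change of the 6, 1.51 ± 0.30 (adjusted p = 0.00226), and Gm10436 and Gm7942 had 3.48 ± 0.68 and 3.42 ± 0.51.

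On chromosome 4, 28 family genes stand within 1014 kb, among them 7 members between 143412426 and 144408464 (GRCm38). Of the 28 genes 14 passed the filter, which the same limit applies to. Of these, 13 rose and 1 fell in 2C::GFP+/SA against mESC, where 25% of all genes were called higher and 20.1% lower. Against 2C::GFP+ 9 rose and none fell, where 14.9% of all genes were called higher and 13.8% lower. Genes close together could differ: Pramef12 lies 27.254 kb from Gm13119, with the untested Pramef20 between them. In 2C::GFP+/SA against 2C::GFP+ the log2 fold change was 3.54 for Gm13119 and -0.38 for Pramef12. Pramef8, whose lower end lies 17.998 kb from that of Pramel1, had 0.49, and Pramel1 had 1.51. Pramef17 had 0.67 and Pramef25 had 3.46, with Gm13101 (3.15) between them. Pramef17 shares 80.9% of its 31-base words with Gm13128, which had 0.95 ± 0.48 (adjusted p = 0.171).

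**Figure D4:**
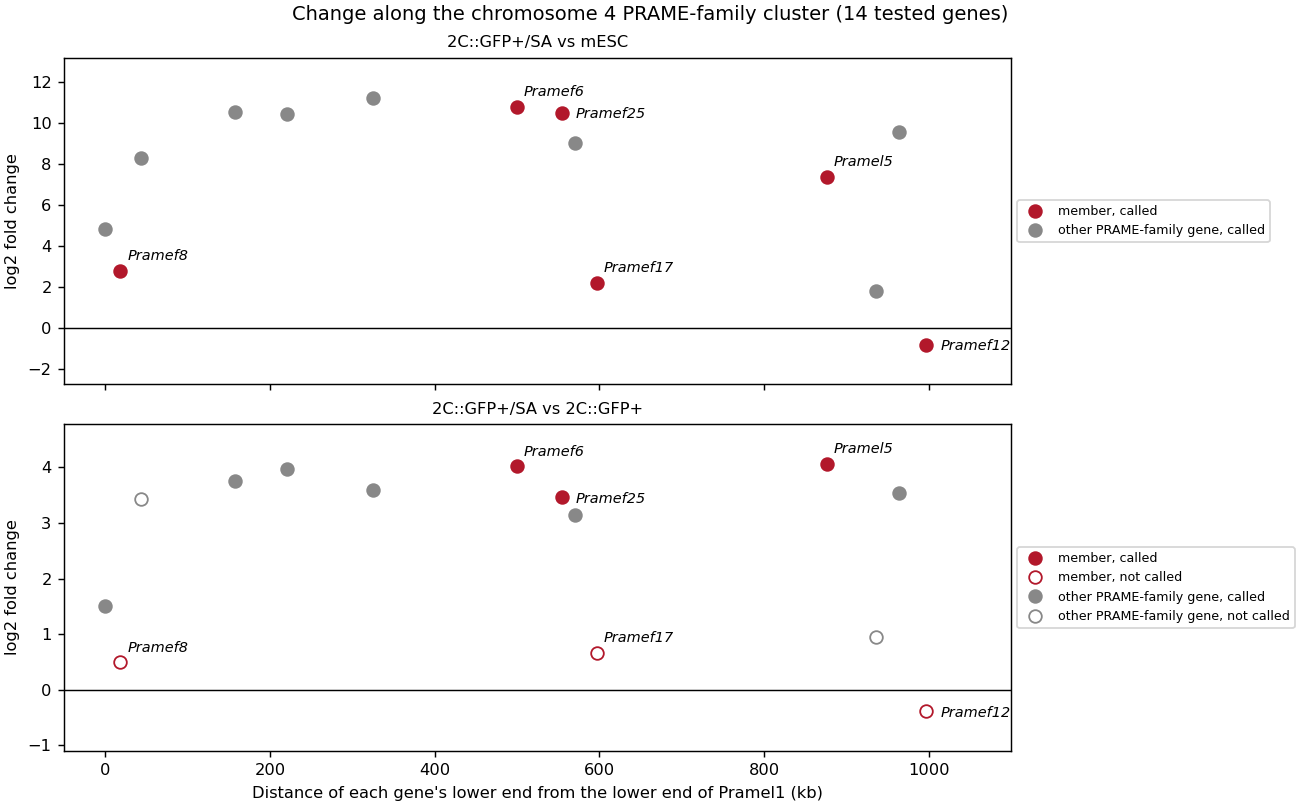
Log2 fold change of the 14 tested family genes of the chromosome 4 cluster against the distance (kb) of each gene's lower end from that of Pramel1, for 2C::GFP+/SA against mESC (top) and against 2C::GFP+ (bottom). Red points are members and grey points other family genes; open points did not pass. Pramef12 is the lone point below 0 in both panels.

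Among the partners of PRAMEL7, the largest change was that of Eloc, 0.90 on the log2 scale. Uhrf1, whose product PRAMEL7 brings to degradation, had 430 and 439 TPM in 2C::GFP+/SA, 659 and 648 TPM in 2C::GFP+/SGC, 698 and 677 TPM in 2C::GFP+, and 703 and 616 TPM in mESC. It fell in 2C::GFP+/SA, with log2 fold changes of -0.60 ± 0.15 (edgeR adjusted p = 0.00798) against 2C::GFP+ and -0.55 ± 0.15 (adjusted p = 0.00788) against mESC. These are transcript levels; protein was not measured. Among the subunits of the ligase, Cul2 (cullin 2) and Rbx1 (its RING subunit) fell in 2C::GFP+/SA against 2C::GFP+, with log2 fold changes of -0.50 ± 0.14 (adjusted p = 0.0139) for Cul2 and -0.39 ± 0.13 (adjusted p = 0.0326) for Rbx1. Rbx1 also fell against mESC (-0.36, adjusted p = 0.0351), while Cul2 rose in 2C::GFP+ against mESC (0.40, adjusted p = 0.0463). Eloc (elongin C) rose against mESC in 2C::GFP+/SA (0.90 ± 0.17, adjusted p = 0.000654) and in 2C::GFP+ (0.52, adjusted p = 0.0354). Elob (elongin B) and Dnmt1 did not pass in any comparison: Dnmt1 had 217 and 252 TPM in 2C::GFP+/SA, and 297 and 312 TPM in 2C::GFP+.

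Genes most like each member in level over the 8 libraries were sought among 13545 genes outside the PRAME family and the PRAMEL7 partners. Left out were predicted models (symbols of Gm plus digits or ending in Rik) and genes without a symbol. Genes with a mean under 1 CPM (counts as a share of the library total) in their highest group were also left out. Likeness was the root mean square (RMS) difference of log2 CPM centred on each gene's mean. The members themselves differed most between Pramef6 and Pramef12 (4.30) and least between Pramef8 and Pramef17 (0.634). Nearest to Pramef6 were AA623943 (0.287) and Duxf3 (0.304), the gene of DUX, a transcription factor of the 2-cell embryo and 1 of the 6 markers of the 2-cell-like state above. Nearest to Pramef25 were Usp17lc (0.302) and Nat8f2 (0.309), and to Pramel5 Neto2 (0.359) and Unc80 (0.397). Pramef8 was nearest to Cilp2 (0.219) and Papolb (0.234), Pramef17 to Fam189a1 (0.307) and Acy3 (0.351), and Pramel6 to AC127331.9 (0.465) and Tfr2 (0.506). Pramel7, with 0.528 to Adgra2 and 0.704 to Defb25, had the most distant neighbours. Pramef12, which itself varied by an RMS of only 0.400 about its mean, had Suox (0.118) and Cluap1 (0.120). The 8 libraries share 4 groups, so these distances describe these libraries only.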

How the data were processed

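The authors deposited a table of read counts per gene, whole numbers left unnormalized, and a table of TPM for the same 8 libraries; checked on the values, the authors' TPM follow from those counts with 1 length for each gene in all libraries. Per the submitters' processing notes, FastQC 0.11.9, Trim Galore 0.6.5, STAR 2.7.4a, featureCounts 2.0.0, Cell Ranger and the builds mm10 and GRCm38 were used; strand, annotation and the handling of multi-mapped reads are not stated. Column names were matched to groups through the labels, except the pair given to 2C::GFP+ by elimination.

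Gene positions and symbols come from GENCODE M21, which held 55480 of the 55573 identifiers. In edgeR 4.0.16 (R 4.3.3) filterByExpr (minimum count 10) kept 20608 genes, 19516 having no count. TMM factors were 0.942 to 1.059. All 8 libraries entered 1 robust quasi-likelihood model with a term for each group (4 residual degrees of freedom, biological coefficient of variation 20.6%). P-values are two-sided, adjusted by Benjamini-Hochberg per comparison and called under 0.05. SE is the absolute log2 fold change over the square root of F. The method was tested on simulated data. Alternatives used DESeq2 1.42.0 and limma 3.58.1. Depth was 12299931 to 145810034 counts; a count of 0 allows up to 3 counts of the total, counting error only.

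The members, the lists of markers and partners, and the naming of genes were chosen with earlier results of these data known. All 9 members are named. Of other family genes, the 6 with the smallest adjusted p in 2C::GFP+/SA against 2C::GFP+ are named. For each tested member, the 2 nearest in level among the candidate genes described above are named. The listed names (Gm13109 and Gm13125) were not found. Promoters are from RefSeq (GRCm38.p6), found for 8 members; Pramef8 has no entry. Pairs of promoters were aligned with Biopython 1.88.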

Additional observations from a re-analysis of the deposited data

How the results depend on the processing

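Calls of members that held under every setting tried were those of Pramef6 in each comparison where it was called, of Pramel7, Pramel5, Pramef8, Pramel6 and Pramef25 in 2C::GFP+/SA against mESC, of Pramel7 and Pramef8 in 2C::GFP+ against mESC, and of Pramel5 in 2C::GFP+/SA against 2C::GFP+. For 2C::GFP+/SGC against 2C::GFP+, where edgeR called 0 genes and 0 members, DESeq2 called 288 genes and 1 member, edgeR without a filter 499 and 1, limma on log2(TPM + 0.1) 1 gene, and edgeR on only the 4 libraries compared 468 genes and 2 members (Pramef6 and Pramef25). Leaving out 1 library at a time gave 0 to 275 genes and 0 to 1 members there. For 2C::GFP+ against mESC, limma on log2(TPM + 1) called 2924 genes, and 1620 without a filter; leaving out 1 library gave 2837 (without mESC replicate 1) to 5809 genes and 3 to 7 members. For 2C::GFP+/SA against 2C::GFP+, limma without a filter called 3075 genes and limma on log2(TPM + 0.1) 2 members; leaving out 1 library gave 2878 (without 2C::GFP+ replicate 1) to 5865 genes and 2 to 6 members. For 2C::GFP+/SA against 2C::GFP+/SGC, limma without a filter called 1354 genes, and leaving out 1 library gave 1235 (without 2C::GFP+/SGC replicate 1; 1708 without replicate 2) to 3152 genes and 1 to 4 members. For 2C::GFP+/SA against mESC limma without a filter called 5964 genes. The main edgeR model called 28.7% of all genes in 2C::GFP+/SA against 2C::GFP+, 16.1% against 2C::GFP+/SGC and 45.1% against mESC. The cause of the differences between settings was not tested.

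Directions turned only for values that did not pass. For 2C::GFP+/SGC against 2C::GFP+, Pramef8 was 0.0055 with limma on log2(TPM + 1), with or without a filter, and 0.0045 on log2(TPM + 0.1); leaving out 1 library moved it between -0.49 and 0.28, Pramef12 between -0.59 and 0.16, and Pramef17 between -0.16 and 0.79. For 2C::GFP+/SA against 2C::GFP+, leaving out 1 library moved Pramef12 between -0.67 and 0.026 and Pramef17 between -0.54 and 1.26. For 2C::GFP+/SA against 2C::GFP+/SGC, it moved Pramel6 between -0.42 and 1.55, Pramef12 between -0.41 and 0.21 and Pramef17 between -0.75 and 1.08. The cause was not tested.

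Across genes, deviations of libraries with the same replicate number had a positive r in every pair of groups, from 0.041 to 0.142. Replicate 1 was also the deeper library in every group. The labels name no shared batch, and the numbers were not taken as pairs in the main model. With the replicate number as a block, 284 genes and 0 members were called in 2C::GFP+/SGC against 2C::GFP+, against 0 genes without it. With that block, Pramef25 in 2C::GFP+/SA against 2C::GFP+ had an edgeR adjusted p of 0.0552. Without both 2C::GFP+ libraries (a setting chosen after seeing the data) there were 2 members called in 2C::GFP+/SA against 2C::GFP+/SGC and 8 against mESC. With all 8 libraries, 16.1% and 45.1% of all genes were called in these comparisons. With 2 libraries a group and replicate 2 at 12299931 to 19544870 counts, members near 0 in mESC have fold changes set by few counts.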
